A study of Mus musculus with 16 samples.

Results

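The genes described here are 40 members of 6 solute carrier (Slc) families that hold most of the mammalian amino acid carriers, out of 19937 genes measured by array in mouse bone-marrow-derived macrophages, which are macrophages grown in culture from marrow precursors. The members are all genes whose platform symbol starts with Slc1a, Slc3a, Slc7a, Slc36a, Slc38a or Slc43a. That rule matches 43 genes, and Slc38a2, Slc7a2 and Slc7a11 are left out. Each gene is represented by its brightest probe set over all arrays, a choice that used no comparison between groups. The families themselves were chosen with earlier results of these data known. The members comprise 7 genes of family 1, 2 of family 3, 14 of family 7, 4 of family 36, 10 of family 38 and 3 of family 43. Slc7a6os, counted in family 7, names a neighbour of Slc7a6 that is no transporter, and it is kept because the rule reads the letters of the symbol.

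RNA was measured on 16 arrays, with 4 in each of 4 groups. The groups were wild type without LPS, wild type with LPS, NFAT5 knockout (KO) without LPS and NFAT5 KO with LPS, all on a 129sv background. NFAT5, a relative of the NF-kB and NFAT factors, is known for activating genes when the medium turns hypertonic, and LPS, a component of bacterial outer membranes, activates macrophages through a Toll-like receptor. The sources used here do not give the LPS dose, the length of the stimulation or the design of the knockout allele. Nor do the labels tie arrays to animals or cultures, so the p-values reflect the spread between arrays alone, which may be technical.

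Amino acid carriers are named by sequence family, and each family serves characteristic substrates and membranes. Family 7 holds the cationic amino acid carriers and the light chains of heteromeric exchangers, which reach the membrane only when bound to a heavy chain of family 3. Families 36 and 38 include carriers of the lysosomal membrane that export amino acids from the lysosome and help the kinase complex mTORC1 to sense them, and families 1, 38 and 43 include plasma membrane carriers of glutamine, glutamate and large neutral amino acids. In macrophages, arginine, glutamine and leucine supply feed nitric oxide production, energy metabolism and protein synthesis.

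The labelled cell type was checked against marker lists: 9 of 10 macrophage markers were measured, all 9 lay above the array median in at least 4 arrays, and their array means lay between 12 and 12.4 on the log2 scale over all groups. Of markers of other cells, 1 of 6 dendritic cell, 1 of 8 neutrophil, 1 of 4 measured B cell, 1 of 6 T or NK cell, 2 of 3 measured erythroid or platelet, 0 of 4 mast cell or basophil and 4 of 6 stromal genes reached that filter. The array means of the stromal list lay between 6.78 and 7.17 without LPS and between 7.46 and 7.76 with LPS. Without Pdgfrb, a receptor of stromal cells, the means of the other 5 genes lay between 6.76 and 7.18 over all groups. Pdgfrb lay between 10.44 and 11.16 in wild type with LPS and between 9.79 and 10.03 in KO with LPS, a difference of -0.90 (limma adjusted p = 0.00169). The macrophage marker Mertk was higher in KO with LPS by 0.79 (limma adjusted p = 0.00891), with 8.51 to 9.27 in wild type and 9.64 to 9.88 in KO. The part of these 2 genes in the genotype results was not tested. In bulk RNA, fewer cells of a type and less RNA per cell cannot be told apart. Nfat5 itself lay between 9.15 and 9.67 in wild type and between 8.93 and 9.20 in KO without LPS, and between 9.80 and 10.56 against 8.67 to 9.29 with LPS. The sources used here do not say whether its probe set lies in the deleted part of the gene. By Xist and Kdm5d, transcripts of the X and Y chromosomes, 10 arrays were of female type, namely the 8 of wild type and number 4 of each KO group, and 6 of 8 KO arrays were of male type, so genotype and sex largely coincided. The KO arrays numbered 4 also stood at the low end of the second principal component, at -24.4 without LPS and -31.4 with LPS, and the wild-type LPS array numbered 4 lay at -18.5. The calls of members between genotypes are therefore given with a sex term, in the female-type arrays alone and without the arrays numbered 4. With a sex term the stimulated Mertk difference was 0.665 and lost its call (limma adjusted p = 0.0915). That of Pdgfrb was -1.13 and kept it (limma adjusted p = 0.00277). Without the arrays numbered 4 both were called (limma adjusted p = 0.00865 for Mertk and 0.00127 for Pdgfrb). The female-type arrays hold 1 KO array per treatment, so a value from them has 1 array in each KO arm and assumes that it varies like the wild-type arrays.

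Many members were dim: 20 of 40 (50%) lay above the array median in at least 4 arrays, against 59.2% of all genes. The 20 dim members had levels between 3.68 and 7.14 in every array, while array medians lay between 6.76 and 6.86. They included Slc1a1, Slc1a3 and Slc1a6, glutamate carriers best known from brain and kidney, Slc3a1 and Slc7a9, which form the cystine carrier of the kidney, Slc7a3, Slc7a12, Slc7a13, Slc36a2, Slc36a3, Slc38a3, Slc38a4, Slc38a5 and Slc43a1. The largest LPS difference of a dim member was 0.35 on the log2 scale, for Slc1a7 in wild type. The 20 brighter members were 2 of family 1, 1 of family 3, 7 of family 7, 2 of family 36, 6 of family 38 and 2 of family 43. A level is comparable only within a probe set, so no order of abundance between genes is given.

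**Figure D1:**
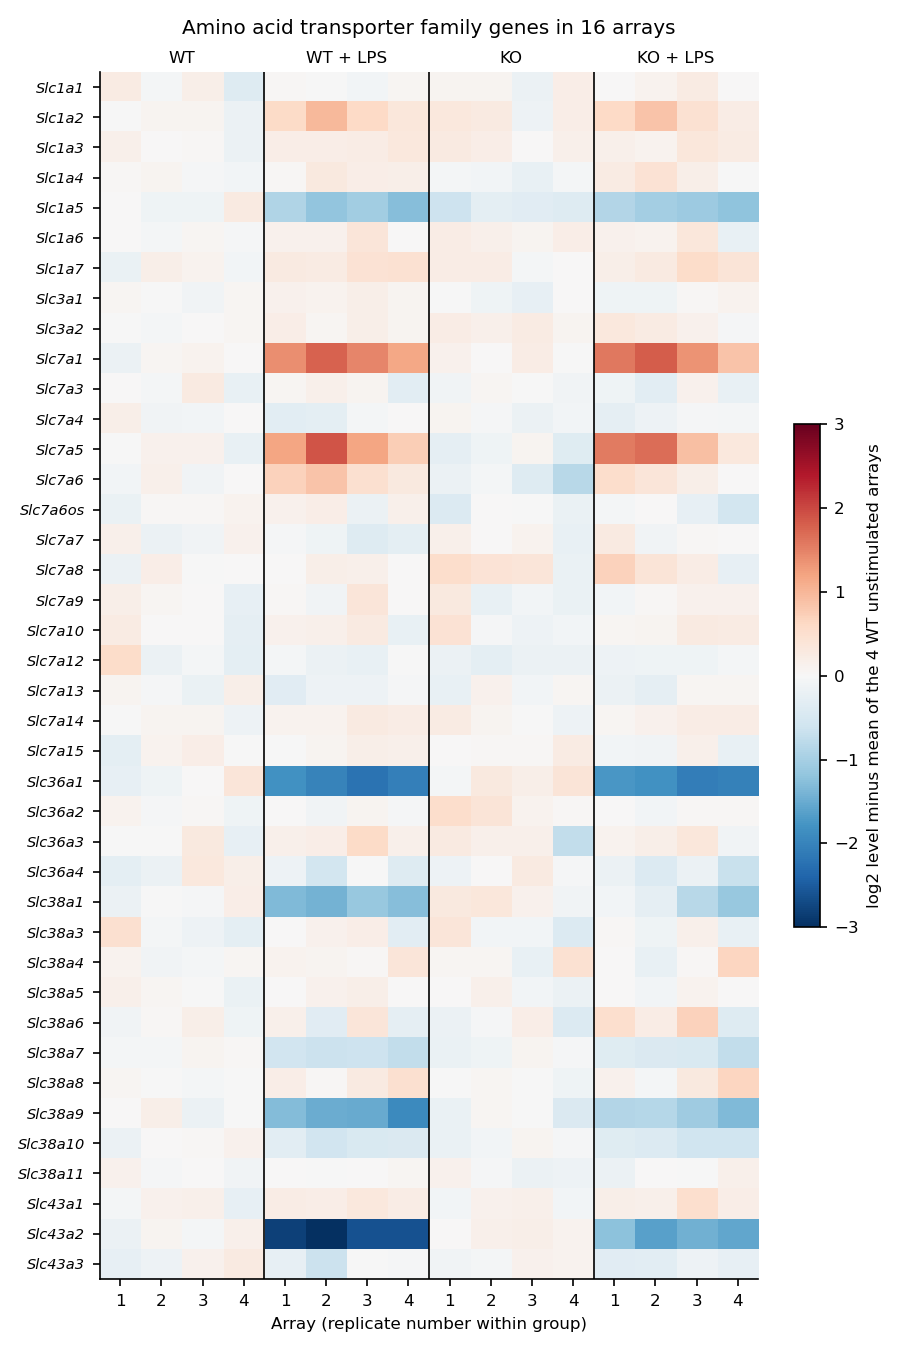
Level of each of the 40 members in each of the 16 arrays, as the log2 difference from that gene's mean over the 4 unstimulated wild-type arrays, with genes in rows by family and arrays in columns by group. The colour changes with LPS sit in a few rows, of which Slc43a2 and Slc36a1 are lower with LPS in both genotypes and Slc7a1 and Slc7a5 are higher.

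LPS moved a minority of the 40 members in both genotypes. In wild type, 12 members were called, where 30.8% of all genes were: 5 rose and 7 fell at an adjusted p under 0.05 (limma, Benjamini-Hochberg over all genes), or 12.5% and 17.5% of the 40. Of all genes tested, 14.0% rose and 16.8% fell, so the shares of the 40 members, dim ones included, were close to the background. At a change of at least 2-fold, 2 members rose and 5 fell, where 3.50% and 4.66% of all genes did. In KO, 11 members were called, where 24.7% of all genes were: 4 rose and 7 fell, against 12% and 12.7% of all genes. At least 2-fold changes in KO comprised 2 members that rose and 2 that fell, against 3.36% and 2.93%. Of the 20 brighter members, 20% rose and 35% fell in wild type, where 20.3% and 26.4% of all brighter genes did. In KO, 15% of these 20 rose and 35% fell, where 19.4% and 19.3% of all brighter genes did. Centring each array on its median left the wild-type split at 5 and 7 and moved the KO split to 7 that rose and 7 that fell. The median LPS difference of the members was 0.077 in wild type, where that of all genes was 0.062, and 0.034 in KO, where that of all genes was 0.0098. In both genotypes the same 10 members were called with the same sign, which is 83.3% of the wild-type calls and 90.9% of the KO calls. For all genes the 4138 shared calls were 67.5% and 84.1%. Over all 5 comparisons, 13 members were called at least once and 27 were not.

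The members that rose at least 2-fold were Slc7a1 and Slc7a5, both of family 7. Slc7a1 encodes CAT1, the main carrier of arginine and lysine in many cells. Its log2 level was 7.78, 8.02, 8.06 and 7.96 in the wild-type arrays without LPS and 9.35, 9.73, 9.41 and 9.11 with LPS. In KO it was 8.09, 7.97, 8.17 and 7.93 without LPS and 9.54, 9.77, 9.29 and 8.80 with LPS. All 8 LPS arrays lay above all 8 unstimulated arrays, and the KO LPS array numbered 4 was the lowest of the stimulated ones. The rise was 1.45 ± 0.16 (SE, 4 against 4 arrays) in wild type, a 2.73-fold change with an adjusted p of 1.15e-06 (limma), and 1.31 or 2.48-fold in KO with an adjusted p of 5.22e-06 (limma). The difference between these responses was -0.14, with a 95% interval from -0.62 to 0.35.

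Slc7a5 encodes LAT1, the light chain of the exchanger that brings leucine and other large neutral amino acids into cells in return for glutamine. It stood at 7.96, 8.10, 8.11 and 7.76 in wild type without LPS and at 9.17, 9.88, 9.17 and 8.71 with LPS. The KO arrays read 7.72, 7.86, 8.05 and 7.61 without LPS and 9.55, 9.66, 8.88 and 8.30 with LPS. Stimulated and unstimulated arrays did not overlap in either genotype, but the LPS arrays were spread widely, with an SD of 0.48 in wild type and 0.63 in KO, and number 4 was the lowest in both. The fitted rise was 1.25 ± 0.25 (SE), or 2.38-fold, in wild type (limma adjusted p = 6.73e-04) and 1.29, or 2.44-fold, in KO (limma adjusted p = 6.45e-04). The responses differed by 0.04, with a 95% interval from -0.71 to 0.79, which leaves room for a sizeable difference either way.

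The heavy chain that Slc7a5 needs, Slc3a2 (CD98hc, 4F2hc), did not pass the test. Its level was 12.46, 12.41, 12.48 and 12.53 in wild type without LPS and 12.67, 12.54, 12.64 and 12.55 with LPS. In KO it was 12.69, 12.61, 12.72 and 12.54 without LPS and 12.79, 12.72, 12.61 and 12.42 with LPS. The wild-type LPS arrays all lay just above the unstimulated ones, while the KO groups overlapped. The difference with LPS was 0.13 in wild type (95% interval -0.05 to 0.31) and -0.01 in KO (-0.19 to 0.17).

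Of the other light chains, Slc7a6 (y+LAT2, which exchanges cationic for neutral amino acids) rose in both genotypes. It read 8.57, 8.80, 8.55 and 8.67 in wild type without LPS and 9.35, 9.50, 9.14 and 8.95 with LPS. In KO it read 8.47, 8.60, 8.26 and 7.81 without LPS and 9.19, 9.01, 8.82 and 8.67 with LPS. Treated and untreated arrays were apart in each genotype, and the lowest of all 16 values was that of the unstimulated KO array numbered 4. The rise was 0.59 ± 0.16 (SE) in wild type and 0.64 in KO, with adjusted p-values of 0.00692 and 0.00456 (limma). Slc7a7 (y+LAT1), the other partner of the heavy chain for cationic amino acids, differed by -0.21 with LPS in wild type and by 0.05 in KO, with adjusted p-values of 0.189 and 0.859 (limma). Slc7a8 (LAT2), a second leucine exchanger, differed by 0.09 (95% interval -0.27 to 0.44) and -0.01 (-0.36 to 0.35).

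Between genotypes, Slc7a8 was uneven over the KO arrays. Its wild-type arrays lay at 11.58, 11.96, 11.76 and 11.77 without LPS and at 11.78, 11.94, 11.91 and 11.78 with LPS. The KO arrays lay at 12.29, 12.17, 12.13 and 11.58 without LPS and at 12.47, 12.16, 11.98 and 11.53 with LPS. KO arrays 1 to 3, of male type, were thus above every wild-type array. Number 4, of female type, lay beside the lowest wild-type array of its treatment without LPS and below it with LPS. This split of the KO arrays coincides both with sex type and with array number, which cannot be told apart among the KO arrays. The genotype difference was 0.27 (95% interval -0.08 to 0.63) without LPS and 0.18 (-0.18 to 0.53) with LPS, and neither passed the test.

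One glutamate carrier, Slc1a2 (GLT-1, EAAT2), also rose, from 6.98, 7.08, 7.07 and 6.82 to 7.56, 7.95, 7.58 and 7.32 in wild type. The groups did not overlap, and the rise was 0.62 ± 0.14 (SE) with an adjusted p of 0.00251 (limma). In KO it went from 7.30, 7.25, 6.84 and 7.18 to 7.58, 7.84, 7.44 and 7.20, where the groups overlapped. That difference was 0.37, with an adjusted p of 0.07 (limma), which passed the threshold in 8 of the alternative settings. Slc1a7 in wild type and Slc1a4 (ASCT1, a carrier of small neutral amino acids) in KO were called at 0.35 and 0.32, but both are dim, and no weight is put on them.

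The members that fell at least 2-fold were Slc43a2, Slc36a1, Slc38a9, Slc38a1 and Slc1a5 in wild type, and Slc36a1 and Slc43a2 in KO. Slc36a1 (PAT1, LYAAT1) moves small neutral amino acids with protons out of lysosomes and is known as a partner of mTORC1 signalling. It was 9.95, 10.09, 10.22 and 10.57 in wild type without LPS and 8.38, 8.21, 8.0 and 8.15 with LPS. In KO the levels were 10.16, 10.49, 10.39 and 10.59 without LPS and 8.47, 8.39, 8.14 and 8.18 with LPS. The 8 stimulated arrays lay more than 1 log2 unit below the 8 unstimulated ones, and the genotypes overlapped in each treatment. The fall was 4.06-fold in wild type (-2.02 ± 0.13 on the log2 scale, SE, limma adjusted p = 9.55e-10) and 4.33-fold in KO (-2.11, limma adjusted p = 8.36e-10). The difference between the responses was -0.09, with a 95% interval from -0.48 to 0.30. Its relative Slc36a4 (PAT4) differed by -0.28 and -0.38, with adjusted p-values of 0.195 and 0.0822 (limma).

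Slc38a9 is the lysosomal arginine sensor that signals to mTORC1 through the Rag GTPases. Wild-type arrays read 9.36, 9.51, 9.18 and 9.34 without LPS and 8.05, 7.85, 7.83 and 7.43 with LPS. KO arrays read 9.15, 9.40, 9.34 and 8.92 without LPS and 8.48, 8.50, 8.29 and 8.04 with LPS. LPS separated the arrays completely in both genotypes, and 3 of the 4 stimulated KO arrays lay above every stimulated wild-type array. The fall was 2.94-fold in wild type (-1.56 ± 0.14, SE, limma adjusted p = 5.69e-08) and 1.84-fold in KO (-0.88, limma adjusted p = 7.71e-05).

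Of the other family 38 genes, Slc38a7, a glutamine and asparagine carrier of the lysosomal membrane, fell from 10.18, 10.18, 10.34 and 10.29 to 9.68, 9.60, 9.64 and 9.51 in wild type. The fall was -0.64 ± 0.09 (SE, limma adjusted p = 2.21e-05), and in KO it was -0.42 (limma adjusted p = 0.00195). Slc38a10 fell by 0.44 and 0.43, from a range of 9.18 to 9.48 down to 8.78 to 9.04 in wild type and from 9.14 to 9.44 down to 8.75 to 8.99 in KO. Slc38a6 differed by -0.02 and 0.36, with adjusted p-values of 0.944 and 0.244 (limma).

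Slc38a1 (SNAT1) brings glutamine into cells with sodium. It was 9.28, 9.46, 9.44 and 9.67 in wild type without LPS and 8.14, 8.05, 8.32 and 8.18 with LPS. In KO it was 9.75, 9.81, 9.59 and 9.35 without LPS and 9.38, 9.19, 8.64 and 8.33 with LPS. The wild-type groups were apart by almost a log2 unit, whereas the highest stimulated KO array lay just above the lowest unstimulated KO array. The fall was 2.45-fold in wild type (-1.29 ± 0.18, SE, limma adjusted p = 1.11e-05) and 1.67-fold in KO (-0.74, limma adjusted p = 0.00372).

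Slc1a5 (ASCT2), the sodium-dependent exchanger that is a main entry route of glutamine, fell as well. Its wild-type arrays read 8.75, 8.62, 8.61 and 9.02 without LPS and 7.85, 7.56, 7.72 and 7.47 with LPS. Its KO arrays read 8.14, 8.46, 8.40 and 8.37 without LPS and 7.86, 7.73, 7.67 and 7.55 with LPS. Every unstimulated KO array lay between the unstimulated and the stimulated wild-type arrays, and the stimulated groups overlapped. The fall was 2.14-fold in wild type (-1.10 ± 0.11, SE, limma adjusted p = 3.55e-07) and 1.56-fold in KO (-0.64, limma adjusted p = 2.48e-04). The difference between the responses, 0.46, had an adjusted p of 0.235 (limma).

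The largest fall of the 40 members in wild type was that of Slc43a2 (LAT4), a facilitative carrier of leucine, isoleucine, valine, phenylalanine and methionine that works by diffusion rather than exchange. Its level was 11.17, 11.43, 11.29 and 11.50 in wild type without LPS and 8.53, 8.11, 8.73 and 8.74 with LPS. In KO it was 11.36, 11.49, 11.52 and 11.46 without LPS and 10.12, 9.71, 9.91 and 9.79 with LPS. Unstimulated arrays of both genotypes overlapped, all stimulated arrays lay below them, and the 4 stimulated KO arrays lay about a log2 unit or more above the 4 stimulated wild-type arrays. The fall was -2.82 ± 0.13 (SE) in wild type (limma adjusted p = 9.32e-12) and -1.58, or 2.98-fold, in KO (limma adjusted p = 2.48e-08). The other measured family members were Slc43a3, known as a purine nucleobase carrier, which differed by -0.24 in wild type and -0.28 in KO with adjusted p-values of 0.209 and 0.168 (limma), and the dim Slc43a1.

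The start regions of Slc43a2, of Slc38a9 and, for contrast, of Slc36a1, whose responses were alike in size in both genotypes, are shown because NFAT5 binds DNA at the tonicity element TonE, whose core TGGAAA was searched on both strands. The sequences are the 250 bases before annotated starts in RefSeq, build GRCm38.p6, in the direction of the gene, with matches to the core in capitals. They are, in order, Slc43a2 at chr11:75531444-75531693 (plus strand), a second start of Slc43a2 at chr11:75531862-75532111 (plus strand), Slc38a9 at chr13:112660516-112660765 (plus strand) and Slc36a1 at chr11:55204090-55204339 (plus strand).
Slc43a2: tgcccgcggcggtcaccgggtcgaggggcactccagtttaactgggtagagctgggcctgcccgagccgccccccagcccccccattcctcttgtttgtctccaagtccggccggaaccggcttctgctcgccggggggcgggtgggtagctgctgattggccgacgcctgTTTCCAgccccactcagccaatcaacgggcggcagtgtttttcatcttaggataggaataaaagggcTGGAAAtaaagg
Slc43a2, second start: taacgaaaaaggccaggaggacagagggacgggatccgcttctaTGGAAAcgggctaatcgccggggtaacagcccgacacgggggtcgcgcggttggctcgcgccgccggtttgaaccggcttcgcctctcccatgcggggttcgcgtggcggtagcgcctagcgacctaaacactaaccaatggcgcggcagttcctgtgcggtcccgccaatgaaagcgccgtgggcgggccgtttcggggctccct
Slc38a9: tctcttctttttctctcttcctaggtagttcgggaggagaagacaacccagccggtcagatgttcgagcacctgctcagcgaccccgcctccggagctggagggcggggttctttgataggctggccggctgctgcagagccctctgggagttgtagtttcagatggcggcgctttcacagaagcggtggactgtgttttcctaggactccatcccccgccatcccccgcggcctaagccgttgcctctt
Slc36a1: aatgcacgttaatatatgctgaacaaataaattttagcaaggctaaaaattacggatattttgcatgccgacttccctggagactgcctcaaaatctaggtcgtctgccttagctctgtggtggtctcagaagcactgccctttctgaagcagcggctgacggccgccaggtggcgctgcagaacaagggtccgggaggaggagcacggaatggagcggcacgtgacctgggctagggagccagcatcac
The first Slc43a2 start had 2 core matches, whose first bases lay at -79 and -12 from the start, and the second start had 1, at -206. The windows of Slc38a9 and Slc36a1 held none. The core is short and common: it was found in 18.6% of all 32851 promoter windows of this length, and in 9 of the 41 windows that matched 30 members. Besides Slc43a2, the members with a match were Slc36a3, Slc38a4, Slc38a6, Slc38a7, Slc7a7 and Slc7a14. None of these others was called between genotypes in the main fit. A second motif was the C/EBP-ATF response core TGATGNAA, through which ATF4 acts on many amino acid carriers. This second motif was found in 3.45% of all windows and in 2 of the 41, both of Slc7a7. Its letters can overlap those of the TonE core, which Slc7a7 also matched, and whether they do there was not checked. A match describes letters in a window and is not evidence of binding, and no match says only that these letters are not there.

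**Figure D2:**
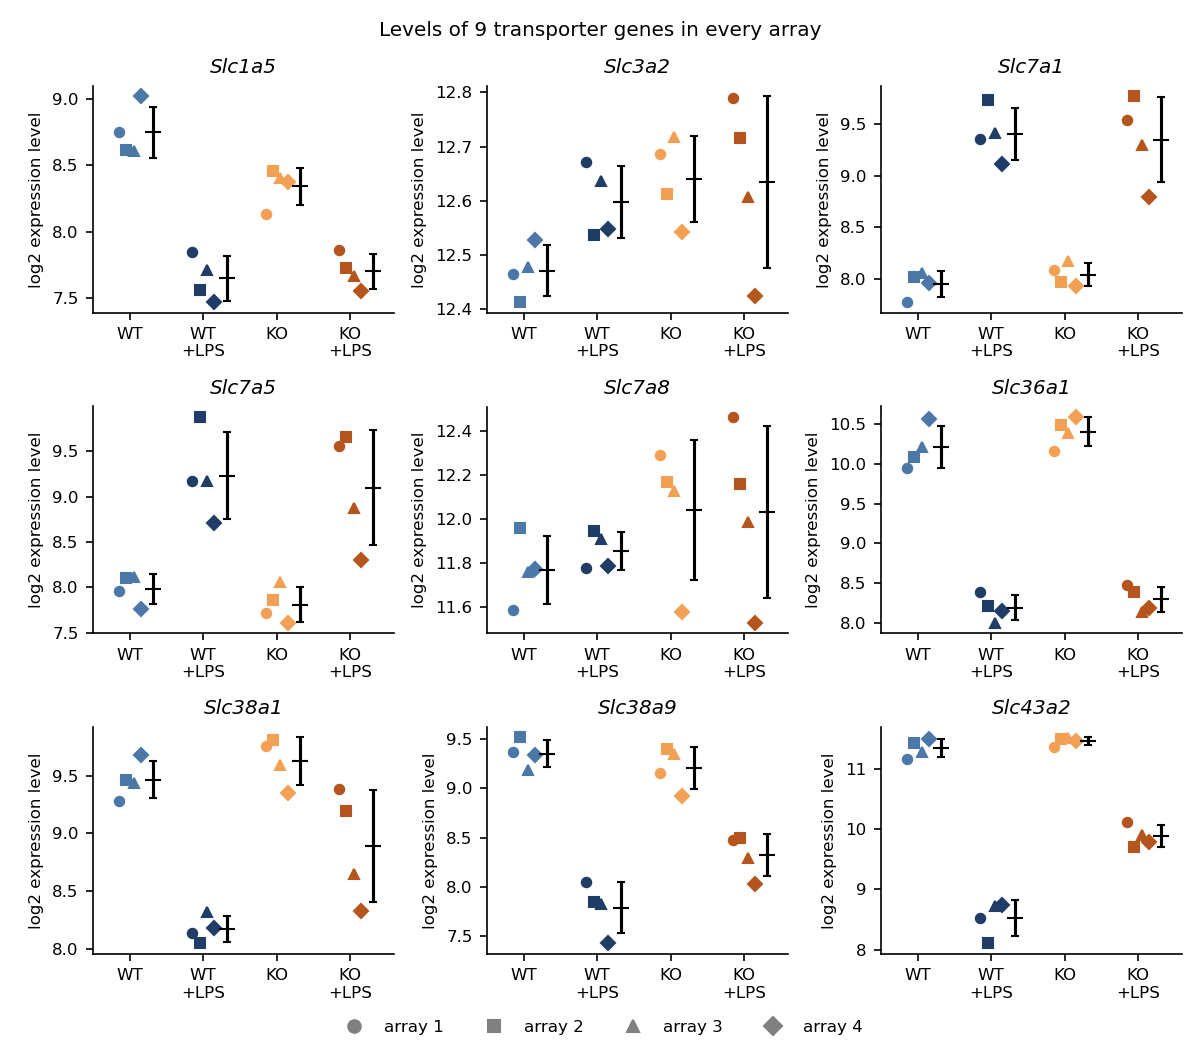
Log2 level in each array (points, with a marker per array number) and group mean with SD (line and bar) for 9 members that differ in how they responded to LPS, 1 panel per gene and 1 column per group. Slc7a1 and Slc7a5 are higher with LPS and Slc36a1, Slc38a9 and Slc43a2 are lower, and the stimulated KO arrays of Slc43a2 sit between 9.71 and 10.12 where the wild-type ones sit between 8.11 and 8.74.

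**Figure D3:**
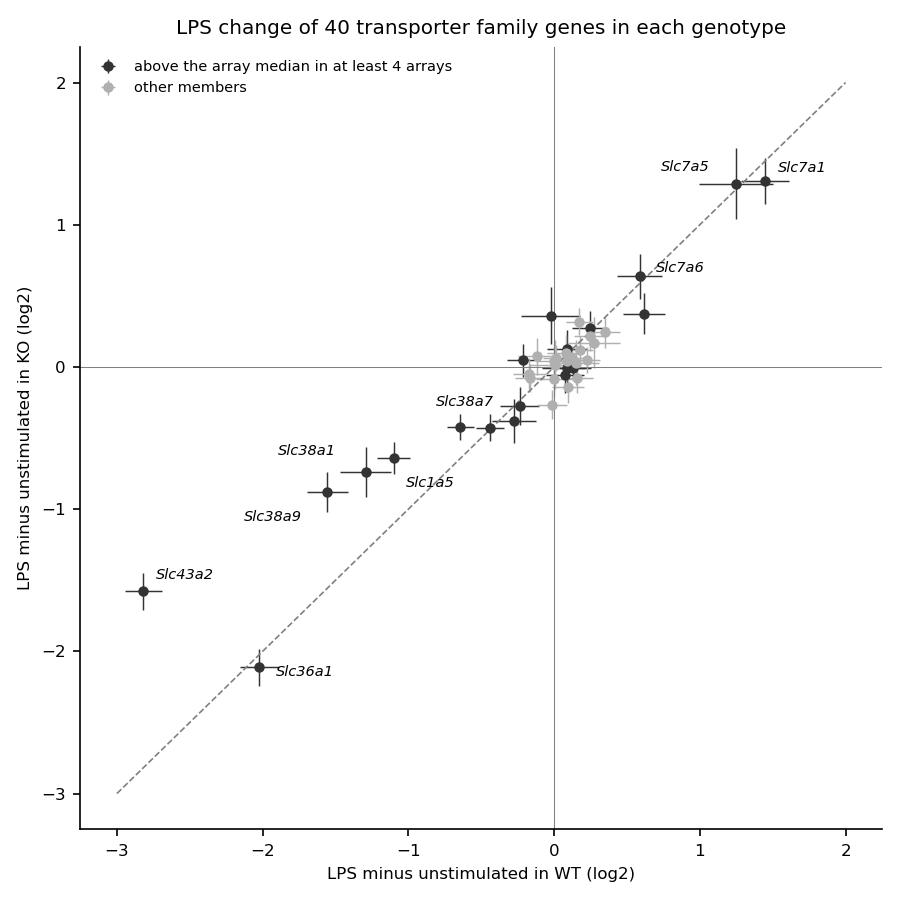
LPS minus unstimulated on the log2 scale in wild type (horizontal axis) and KO (vertical axis) for the 40 members, with bars of 1 SE from the limma fit and a dashed line where both responses are equal. Slc36a1, Slc7a1, Slc7a5 and Slc7a6 lie near the line, while Slc43a2 lies at -2.82 in wild type and -1.58 in KO.

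Without LPS, no member differed between KO and wild type at an adjusted p under 0.05 (limma), where 1.0% of all genes did, and 3 members had an unadjusted p under 0.05. The smallest adjusted p was 0.124 (limma), for Slc1a5, which was lower in KO by 0.41 (95% interval -0.65 to -0.17) with no overlap between the groups. That Slc1a5 difference was -0.47 with a sex term and -0.33 without the arrays numbered 4, and neither passed the test (limma adjusted p = 0.109 and 0.308). Slc43a2 differed by 0.11 (95% interval -0.16 to 0.38). Slc7a6 was lower in KO by 0.36 without LPS and by 0.31 with LPS, with adjusted p-values of 0.559 and 0.491 (limma). With a term for sex these differences were -0.73 and -0.67, with adjusted p-values of 0.033 and 0.0292 (limma), and in the female-type arrays alone, with 1 KO array each, they were -0.84 and -0.56, with adjusted p-values of 0.126 and 0.214 (limma). Without the arrays numbered 4, which hold its lowest value, they were -0.20 and -0.32, with adjusted p-values of 0.867 and 0.287 (limma). The dim Slc38a4 was the other member called without LPS under the sex term, at 0.54 (limma adjusted p = 0.0461).

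With LPS, 3 members were called, where 3.05% of all genes were, and all 3 were higher in KO than in wild type, or 7.5% of the 40, where 1.80% of all genes were higher and 1.26% were lower (limma, adjusted p under 0.05). Slc43a2 was higher by 1.36 ± 0.13 (SE), a 2.56-fold difference with an adjusted p of 8.26e-06 (limma). That call was made in all 26 alternative settings, with values from 1.13 to 1.46 and adjusted p-values from 7.16e-06 to 0.0359 (limma). With a sex term the difference was 1.31, and without the arrays numbered 4 it was 1.46. In the female-type arrays it was 1.26, which sets the single stimulated KO array numbered 4 against the 4 of wild type.

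The other calls with LPS were less firm. Slc38a1 was higher in KO by 0.72 ± 0.18 (SE), or 1.64-fold, with an adjusted p of 0.0312 (limma) and no overlap between the stimulated groups. The call was lost in 11 settings, with a sex term (0.30, limma adjusted p = 0.386) among them, and it was kept without the arrays numbered 4 (0.90, limma adjusted p = 0.00594). In the female-type arrays, with a single KO array, the difference was 0.16 (limma adjusted p = 0.712). The 3 male-type KO arrays read 9.38, 9.19 and 8.64 and the female-type one 8.33, against 8.05 to 8.32 in wild type. The call was also lost when any of the stimulated arrays numbered 1 or 2, or the wild-type one numbered 4, was left out, with adjusted p-values from 0.0592 to 0.12 (limma).

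Slc38a9 was higher in KO with LPS by 0.53 ± 0.14 (SE), or 1.45-fold, with an adjusted p of 0.0435 (limma) and 1 overlapping array. Its call was lost in 17 of 26 settings, with adjusted p-values from 0.0504 to 0.639 (limma). The difference was 0.25 with a sex term and 0.24 in the female-type arrays with their single KO array, with adjusted p-values of 0.402 and 0.639 (limma), and 0.51 without the arrays numbered 4, with an adjusted p of 0.024 (limma). Leaving out any of 12 single arrays lost it, with the lowest value, 0.41, without the wild-type LPS array numbered 4. Genotype and sex cannot be told apart for Slc38a1 and Slc38a9 in these arrays.

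The difference between the genotypes in the LPS response was called for 1 member, Slc43a2, where 1.29% of all genes were called (limma, adjusted p under 0.05), and 4 members had an unadjusted p under 0.05. The response of Slc43a2 in KO was smaller by 1.24 ± 0.18 on the log2 scale (SE), a 2.36-fold difference with an adjusted p of 0.00332 (limma). The value lay between 1.10 and 1.31 over the settings, and the call was lost only in the female-type arrays alone, where it was 1.15 with an adjusted p of 0.409 (limma) and the KO response is 1 array against 1. For Slc38a9 the difference was 0.68 ± 0.20 (SE), with an adjusted p of 0.12 (limma). It passed the threshold with the array number as a block (limma adjusted p = 0.024) and with a sex term (limma adjusted p = 0.0452). It did not pass in the arrays numbered 1 to 3 (0.57, limma adjusted p = 0.149), in the female-type arrays with 1 KO array per arm (0.67, limma adjusted p = 0.661) or with the mean of its probe sets (0.26, limma adjusted p = 0.718). For Slc38a1 it was 0.56, with an adjusted p of 0.446 (limma).

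**Figure D4:**
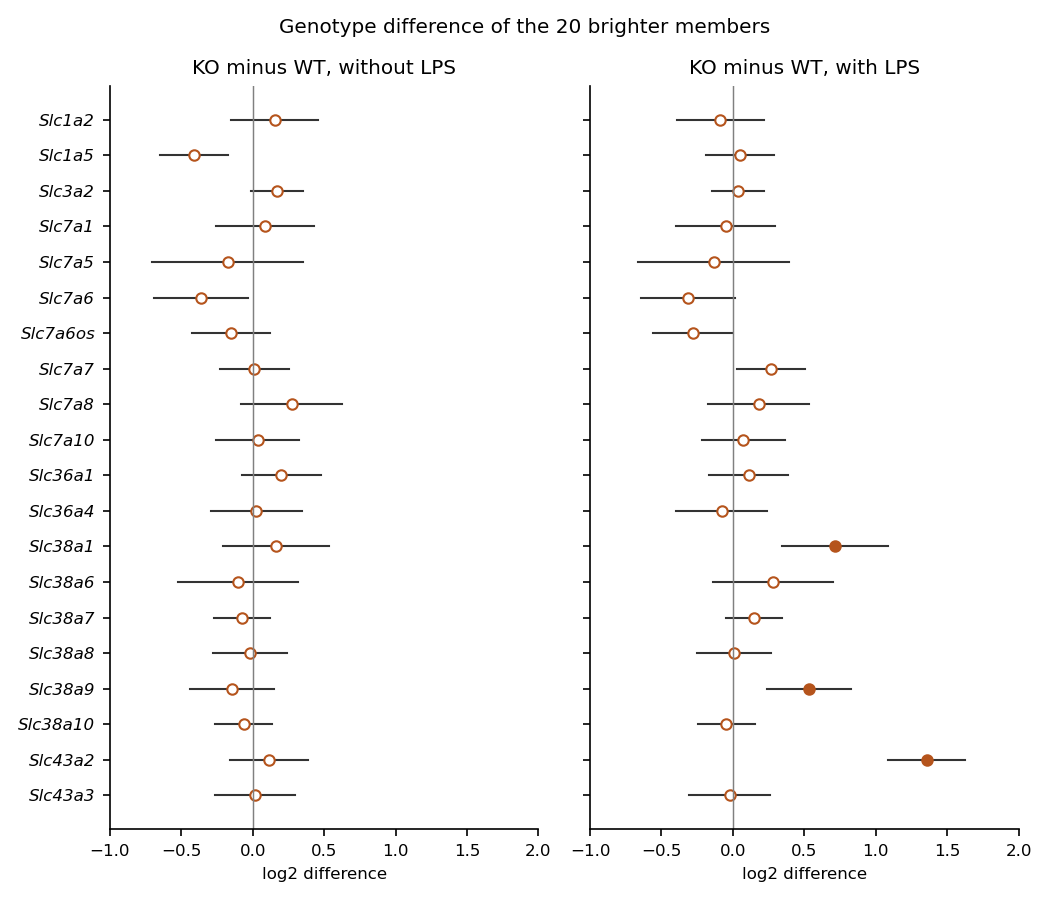
KO minus wild type on the log2 scale without LPS and with LPS for the 20 brighter members, with bars of the 95% interval from the limma fit a line at 0 and filled points for calls. With LPS, Slc43a2 stands at 1.36, Slc38a1 at 0.72 and Slc38a9 at 0.53, and without LPS no member passed the test.

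Only Slc38a1 and Slc38a9 had more than 1 probe set among the members, and the second sets bear on these calls. The dimmer Slc38a1 probe set had group means of 6.68 in wild type and 6.91 in KO without LPS and of 5.65 and 6.09 with LPS. It fell with LPS by 1.03 in wild type and 0.82 in KO, and its genotype difference with LPS was 0.44 with an adjusted p of 0.483 in a limma fit over all probe sets, where the brighter one had 0.0369. The dimmer Slc38a9 probe set had means of 7.91 and 8.08 without LPS and of 7.52 and 7.54 with LPS. Its fall was -0.39 in wild type and -0.54 in KO, with adjusted p-values of 0.0446 and 0.00741 (limma). Its genotype difference with LPS was 0.01, with an adjusted p of 0.998 (limma), and the difference in response was -0.15, opposite in sign to the brighter probe set. In the fit over all probe sets the brighter Slc38a9 set had 0.53 with an adjusted p of 0.0505 (limma) and was not called. The higher Slc38a9 level of stimulated KO arrays was therefore seen on the brighter of its probe sets alone.

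**Figure D5:**
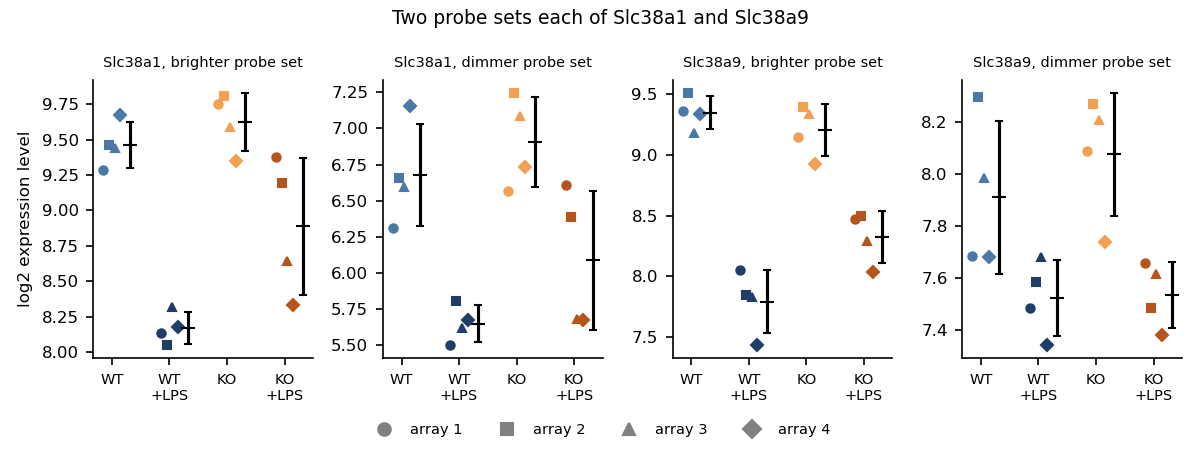
Log2 level per array (points) and group mean with SD (line and bar) for both probe sets of Slc38a1 and of Slc38a9. Both Slc38a1 sets are lower with LPS, while the dimmer Slc38a9 set has stimulated means of 7.52 in wild type and 7.54 in KO.

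The 5 lists of other genes tied to amino acid supply give the surroundings of these carriers, and some genes stand in more than 1 of them. Of their 12 genes called between genotypes with LPS, all 12 kept their sign with a sex term and 5 kept the call, namely Glul, Got1, Sesn1, Slc6a12 and Wdr59. Without the arrays numbered 4, 9 of the 12 were called. The 2 genes called without LPS, Slc6a12 and Nupr1, were called in both settings, and the 4 called for the difference in response were all called with a sex term, of which Sesn1 and Slc15a4 were also called without the arrays numbered 4. Of 27 other carriers of amino acids and small peptides, 7 rose and 7 fell with LPS in wild type and 6 rose and 6 fell in KO, where 14.0% and 16.8% of all genes did in wild type and 12% and 12.7% in KO. Slc15a3, a lysosomal peptide and histidine carrier, rose by 1.41 in wild type and 1.29 in KO, and Slc16a10, which carries aromatic amino acids, rose by 1.18 and 1.28. Ctns, the lysosomal cystine exporter, fell by 1.68 and 1.10, and Slc6a6, the taurine carrier, fell by 0.81 and 0.54. In KO with LPS, Ctns was higher by 0.55 and Slc15a4, another lysosomal peptide and histidine carrier, by 0.47, with adjusted p-values of 0.0242 and 0.022 (limma). Slc6a12, the betaine carrier, was lower in KO, with differences of -3.26 without LPS and -3.34 with LPS, and was the single gene of the list called without LPS, where 1.0% of all genes were called. With LPS the list had 3 calls between genotypes, where 3.05% of all genes were called. The difference in response was called for 1 gene, Slc15a4, at 0.69 (limma adjusted p = 0.0357), where 1.29% of all genes were called.

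Of 32 genes through which mTORC1 senses amino acids, 4 rose and 20 fell with LPS in wild type, where 14.0% and 16.8% of all genes did. In KO, 4 rose and 12 fell, where 12% and 12.7% of all genes did. The median LPS difference of the list was -0.51 in wild type and -0.24 in KO. Sesn1, a leucine-binding inhibitor of mTORC1, fell by 2.86 in wild type and 1.44 in KO, and Castor2, of the arginine sensor family, fell by 1.53 in wild type. Fnip2, a partner of folliculin, fell by 1.52 and 1.57. With LPS, Sesn1 was higher in KO by 1.40 and Castor2 by 0.62, while Wdr59, a subunit of the GATOR2 complex, was lower by 0.50. Of all genes, 1.80% were higher and 1.26% lower in that comparison. The difference in response was called for Sesn1 alone, at 1.42 (limma adjusted p = 0.0018), where 1.29% of all genes were called.

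Among 27 measured of 28 genes of the amino acid response and ATF4 programme, 11 rose and 5 fell in wild type, where 14.0% and 16.8% of all genes did, and 7 rose and 2 fell in KO, where 12% and 12.7% did. Ppp1r15a, which restores translation after stress, rose by 2.58 in wild type, Cebpb, a transcription factor of the macrophage response, by 1.56 and the stress gene Nupr1 by 1.90. Nupr1 was lower in KO by 0.98 without LPS and by 0.59 with LPS. Of 17 measured of 20 cytosolic tRNA synthetases, which load amino acids onto tRNA, 7 rose and 2 fell in wild type, 8 rose and 1 fell in KO, and none was called between genotypes (limma), where 1.0% of all genes were called without LPS and 3.05% with LPS.

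Of 27 measured of 30 enzymes of glutamine, glutamate, serine and branched-chain amino acids, 6 rose and 9 fell in wild type, where 14.0% and 16.8% of all genes did, and 5 rose and 5 fell in KO, where 12% and 12.7% did. Got1, the cytosolic aspartate aminotransferase, fell by 3.06 in wild type, Glul, which makes glutamine, by 2.68 and Bckdha, a subunit of the branched-chain keto acid dehydrogenase, by 1.36. With LPS, 5 of these genes were higher in KO and none was lower, where 1.80% and 1.26% of all genes were: Glul by 0.92, Got1 by 0.89, Shmt2 by 0.68, Bckdk by 0.50 and Bckdha by 0.35. The difference in response was called for Got1 at 0.81 and Bckdha at 0.57, where 1.29% of all genes were called. The KO against wild type comparison with LPS and the difference in response share the stimulated arrays, so their values are given side by side and not as separate evidence.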

How the data were processed

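RNA of 16 macrophage samples was hybridised to 1-channel Affymetrix arrays, 1 sample per array. The deposited log2 expression levels per probe set were made with RMA (robust multi-array averaging), per the submitters' processing notes, where no version is named. This method subtracts background, brings the arrays to one distribution and combines probes, so a shift common to all genes is removed and differences of dim genes are compressed towards 0. Precision is limited by the number of arrays.

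The platform annotation named 1 gene for 21640 of 34760 probe sets and several for 1321, and the other 11799 are unnamed here. For each of 19937 genes the brightest probe set was used. A linear model with 4 group means was fitted to all 16 arrays with limma 3.58.1 in R 4.3.3 (12 residual degrees of freedom, 5 contrasts), after a check on simulated data. A gene was called at a Benjamini-Hochberg adjusted p under 0.05 over all genes. Brighter genes were those above the array median in at least 4 arrays. The members and gene lists were chosen with earlier results of these data known, so their counts are descriptions. Values in every array are given for members called with at least a 2-fold change with LPS or in a genotype comparison, and always for Slc3a2, Slc7a5, Slc7a1, Slc7a8, Slc38a1, Slc38a9, Slc36a1 and Slc43a2. Slc7a6, Slc38a7 and Slc1a2 were added after their values were seen. From each other list, up to 4 genes with the smallest p per contrast could be named. Array numbers come from the sample titles. Same-numbered arrays deviated together between genotypes (correlation of deviations from group means 0.16 to 0.44 without LPS and 0.19 to 0.52 with LPS). The main fit holds no term for the number, so its p-values do not use this pairing. A replicate block, which adds that term, was an alternative. Alternatives were a sex term, the female-type arrays alone, the arrays numbered 1 to 3, the replicate block, median centring, the mean of a gene's probe sets, a filter on dim genes, a fit of only the groups compared and leaving out each array. The sex term with the block, the block in a fit of only the groups compared the fit of all probe sets and the sex term and arrays 1 to 3 for the listed genes were chosen after seeing the data.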

Additional observations from a re-analysis of the deposited data

Results flagged for a closer look

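The LPS response of Slc43a2 differed between the genotypes: its fall was smaller in KO than in wild type by 1.24 on the log2 scale (limma adjusted p = 0.00332), by a test of the difference itself. Within the 36 groups of 4 arrays examined for the 9 members plotted by array, 0 arrays stood apart from the others of their group.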

How the results depend on the processing

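Of 27 calls of members over the 5 comparisons, 17 were made in every alternative, 10 were lost in some and 0 changed sign. For LPS in wild type the count of 12 stayed within 1.5 times. For LPS in KO the count of 11 was 6 in the female-type arrays alone, a fit of fewer arrays with 1 KO array per treatment. For KO against wild type without LPS it went from 0 to 2 with a sex term. With LPS it went from 3 to 1 in the fit of only the groups compared, with the mean of probe sets, in the female-type arrays alone and with the sex term and the replicate block together, and lay between 1 and 3 on leaving out single arrays (1 without KO arrays 1 or 2 or wild-type arrays 2 or 4, all with LPS). For the difference in response it went from 1 to 2 with the replicate block, with the sex term and with both, and to 0 in the female-type arrays alone. The cause of these changes in count was not tested. Differences that did not pass the test and turned sign were those of Slc36a2 with LPS in KO, 0.0060 in the female-type arrays alone, and Slc38a4 without LPS, -0.0087 in arrays 1 to 3 and -0.030 to 0.19 on leaving out single arrays, the former without KO array 4. Array numbers paired treated with untreated arrays unevenly: the correlations were 0.045 to 0.43 in wild type and -0.06 to 0.56 in KO. In wild type 6 of 8 arrays, and in KO 4 of 8, correlated best with their own number. There the block gave 13 calls in wild type and 15 in KO. For the genotype comparisons, where the numbers pair more evenly, the block left the counts at 0 and 3 in the fit of all groups. It changed no call in that fit. In the fit of only the groups compared, the block moved the count with LPS from 1 to 2. Slc38a9 was then called and Slc38a1 stood at an adjusted p of 0.0609 (limma). Dim probe sets and 4 arrays a group limit what could be seen.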
